A study of Homo sapiens with 10 samples.

Results

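Inflammatory cytokines, chemokines and members of the TNF family were followed across the Oct4 subsets of a breast cancer cell line through 8 genes, which were IL1A, CCL2, CXCL1, CXCL2, TNF, LTB, TNFAIP3 and TNFRSF9. Included were all probe sets that the platform annotation gives to those symbols, 13 of the 25750 probe sets in the deposited table, for 8 of the 12083 genes with a probe set of 1 symbol. The RNA came from MDA-MB-231, a human breast cancer cell line derived from a metastatic site, stably transfected with pEGFP1-Oct3/4, in which the Oct4A promoter drives GFP, and kept under neomycin selection. Cell sorting by GFP intensity gave Oct4low breast cancer cells (BCCs; 4 arrays, the dimmest 5% of cells per the labels), Oct4hi BCCs (4 arrays, the brightest 5%) and Oct4med BCCs between these gates (2 arrays, since reagents were limited). The study's results section gives a wider low gate than the labels do, while its methods give the same 5% as the labels. All subsets carried the same vector and the same selection. The groups are therefore gates on reporter fluorescence within 1 transfected line, untransfected cells were not analysed here, and p-values measure the spread among these samples, which the labels call biological replicates and the study's methods place in 4 experiments.

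Cytokines and chemokines are secreted proteins that recruit and activate other cells, and many of their genes are switched on by the transcription factor NF-kB after signals from TNF or interleukin-1 receptors. NF-kB also switches on its own brakes, among them TNFAIP3 (A20), a ubiquitin-editing enzyme that ends the signal, and NFKBIA, which holds NF-kB in the cytoplasm. Triple-negative breast cancer lines such as MDA-MB-231 are known for constitutive NF-kB activity and for secreting interleukin-6 and CXC chemokines.

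The DNA before the start sites shows what part of these genes has in common. RefSeq promoters (GRCh38.p14) were held for 7 of the 8 members (not CCL2), and the 250 bases before each annotated start were searched on both strands for the NF-kB (kappa B) consensus, for TATAAA and for the AP-1 letters TGANTCA. The kappa B consensus was found before 5 members, against 11.8% of the 27305 genes in that table. These 5 windows are printed because the levels of their genes went in different directions across the subsets and each held the same motif. Each reads 5′ to 3′ in the direction of its gene and ends at the base before the start, and capitals mark the kappa B match or matches (overlapping matches on the opposite strands run together). They lie at chr4:73869143-73869392, plus strand (CXCL1), chr4:74099196-74099445, minus strand (CXCL2), chr6:31582425-31582674, minus strand (LTB), chr6:137867009-137867258, plus strand (TNFAIP3) and chr1:7940840-7941089, minus strand (TNFRSF9).
CXCL1: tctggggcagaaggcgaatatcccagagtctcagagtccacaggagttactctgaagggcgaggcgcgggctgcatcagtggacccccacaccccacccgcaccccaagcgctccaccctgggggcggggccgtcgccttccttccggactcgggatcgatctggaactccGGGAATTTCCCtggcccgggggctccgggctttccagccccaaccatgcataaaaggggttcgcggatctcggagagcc
CXCL2: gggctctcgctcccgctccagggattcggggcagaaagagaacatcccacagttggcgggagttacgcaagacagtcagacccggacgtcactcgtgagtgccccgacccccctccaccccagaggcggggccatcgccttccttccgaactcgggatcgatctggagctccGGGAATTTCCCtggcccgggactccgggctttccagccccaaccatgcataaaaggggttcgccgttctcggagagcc
LTB: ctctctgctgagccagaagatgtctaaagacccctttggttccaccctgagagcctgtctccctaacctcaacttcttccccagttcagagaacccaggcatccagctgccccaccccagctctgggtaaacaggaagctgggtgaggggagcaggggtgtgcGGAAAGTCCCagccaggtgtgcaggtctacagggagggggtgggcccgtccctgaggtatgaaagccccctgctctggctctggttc
TNFAIP3: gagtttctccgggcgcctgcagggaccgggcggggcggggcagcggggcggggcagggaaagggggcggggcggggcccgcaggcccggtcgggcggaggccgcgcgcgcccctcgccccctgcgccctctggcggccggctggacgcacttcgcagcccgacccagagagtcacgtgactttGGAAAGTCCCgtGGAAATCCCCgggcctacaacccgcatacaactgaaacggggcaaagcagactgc
TNFRSF9: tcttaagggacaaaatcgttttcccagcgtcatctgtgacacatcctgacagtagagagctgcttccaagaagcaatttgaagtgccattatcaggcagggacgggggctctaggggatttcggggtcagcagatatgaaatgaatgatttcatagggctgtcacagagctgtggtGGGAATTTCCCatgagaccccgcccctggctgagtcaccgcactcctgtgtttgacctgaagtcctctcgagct
CXCL1 and CXCL2 carried the same capitals at almost the same place, 79 and 78 bases before the start, and their windows were identical at 189 of 278 aligned columns (68.0%), with a longest unbroken identical run of 42 bases. TNFAIP3 held separate matches starting 67 and 55 bases before its start. LTB, whose table entry has 2 starts, held 1 match before either of them, and the window of the start at the lower coordinate is shown. TNFRSF9 held in addition an AP-1 match 44 bases before its start. The windows of IL1A and TNF held no kappa B match. IL1A, also with 2 starts, held AP-1 letters before either of them (8.06% of all genes hold such a match), and TNF held TATAAA 29 bases before its start (13.0% of all genes). A match is a run of letters, and binding was not measured. The kappa B consensus was read as GGGRNNYYCC (R for A or G, Y for C or T, N for any base). Only exact matches were counted, so a window without one may still hold a variant site.

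**Figure D1:**
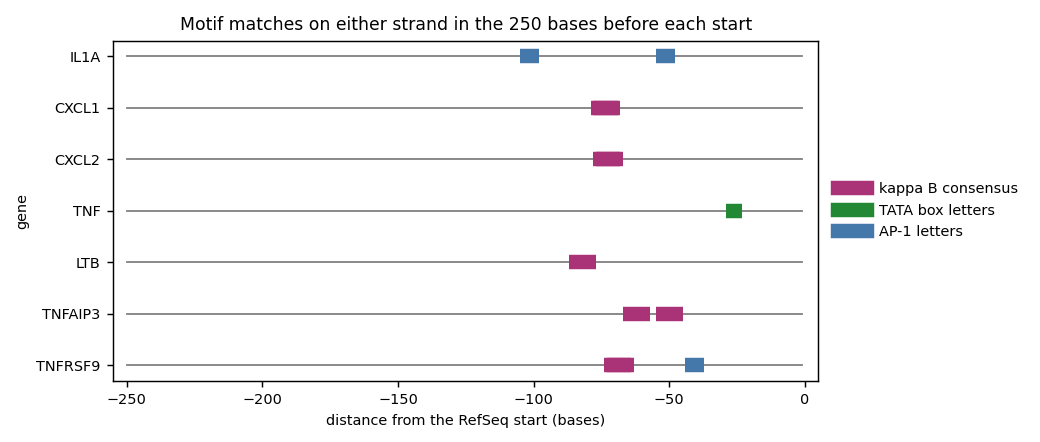
Positions of motif matches (coloured blocks) in the 250 bases before the RefSeq start of the 7 members with a promoter entry, with distance from the start in bases on the horizontal axis and 1 line per gene. For genes with 2 starts the window of the lower coordinate is drawn. The kappa B matches of CXCL1, CXCL2, LTB, TNFAIP3 and TNFRSF9 all lie in the last 100 bases before the start.

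Values are log2 intensities from RMA, so that a difference of 1 is a 2-fold change. A probe set was tested if it reached its array's median in at least 2 of the 10 arrays, which 13883 probe sets did. Of the members, 11 probe sets passed, with at least 1 for each gene, and 2 did not. The second IL1A probe set (208200_at) had means of 4.59 (Oct4low), 4.22 (Oct4med) and 4.43 (Oct4hi), and the second CXCL2 probe set (1569203_at) had means of 4.35, 4.54 and 4.20. Both stayed below the median on every array and are not described further. Calls rest on an adjusted p under 0.05 over all tested probe sets.

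Between the extreme gates, 10 of the 11 member probe sets were called, 8 of them higher in Oct4hi BCCs and 2 lower, where 34.8% of all tested probe sets were called (18.2% higher and 16.7% lower). These are counts of probe sets, in which TNFRSF9 and TNFAIP3 count more than once. The arrays of those gates did not overlap for 10 member probe sets, and for 33.8% of all. Oct4med was called against Oct4low for 9 member probe sets, above it for 5 and below it for 4. Of all probe sets 20.6% were called (5.19% above and 15.5% below). All 11 member probe sets had no overlap between these arrays, as had 40.5% of all. Oct4hi was called against Oct4med for 7 member probe sets, above it for 5 and below it for 2. Of all probe sets 26.7% were called (18.1% above and 8.60% below). Here 8 member probe sets had no overlap, as had 45.2% of all. After a further quantile normalization the calls over all probe sets were 1381 above and 1807 below Oct4low in Oct4med (720 and 2145 as deposited), and 1719 above and 1618 below Oct4med in Oct4hi (2516 and 1194 as deposited, 2642 and 772 after a shift to a common median). With each gene taken by its brightest tested probe set, the median difference of the 8 genes was 0.46 for Oct4hi minus Oct4low, 0.26 for Oct4med minus Oct4low and 0.15 for Oct4hi minus Oct4med, beside 0.02, 0.03 and -0.01 over all 7644 genes tested. Those medians hide opposite movements. LTB, CCL2, IL1A, TNF and TNFRSF9 were higher in Oct4hi than in Oct4low BCCs, CXCL1 and CXCL2 were lower, and the brighter TNFAIP3 probe set was not called. The members were chosen with earlier results of these data known, so these shares and medians describe them and are no test against all genes. TNF passed the filter only through Oct4med and Oct4hi arrays, in which it was higher. The comparisons share arrays, and the results below give each gene's own values.

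**Figure D2:**
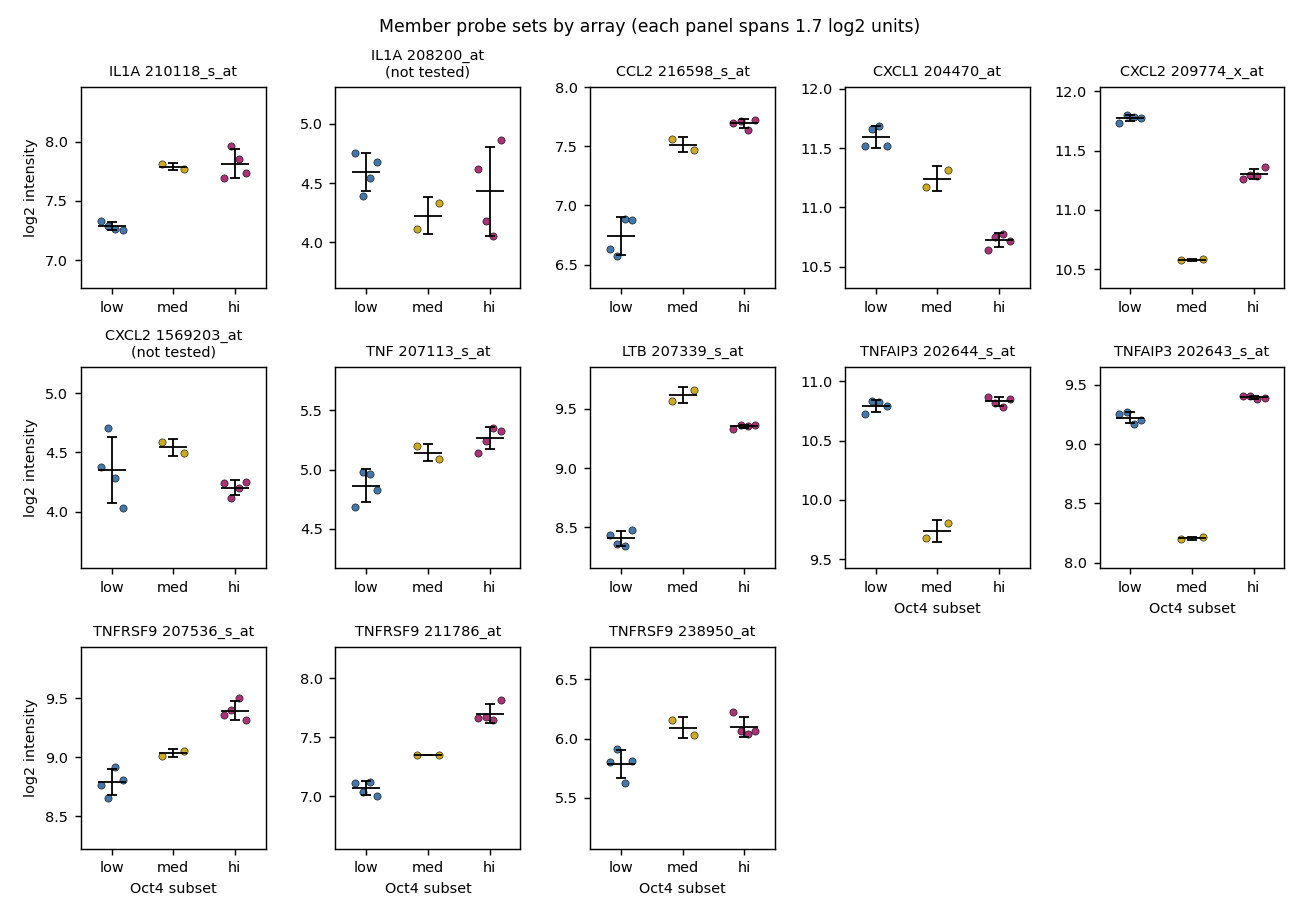
Log2 intensity (vertical axis) of the 13 member probe sets on each array, by Oct4 subset (4 Oct4low, 2 Oct4med and 4 Oct4hi arrays). Points are arrays, horizontal bars are means and whiskers are 1 SD. The panels have different positions but equal spans on the log2 scale. LTB and CCL2 sit higher in Oct4med and Oct4hi than in Oct4low, CXCL1 falls over the gates, and the tested CXCL2 probe set and both TNFAIP3 probe sets are lowest in Oct4med.

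The TNF superfamily ligands come before the receptors. LTB encodes lymphotoxin beta, a membrane protein that anchors lymphotoxin heterotrimers at the cell surface. The 4 Oct4low arrays read 8.44, 8.36, 8.35 and 8.48, the Oct4med arrays 9.57 and 9.66, and the Oct4hi arrays 9.34, 9.36, 9.36 and 9.36. Every Oct4med array lay above every Oct4hi array, and every Oct4hi array above every Oct4low array. LTB was thus 2.31-fold higher in Oct4med than in Oct4low BCCs (log2 difference 1.21, SE 0.080, adjusted p = 1.57e-06) and 1.93-fold higher in Oct4hi than in Oct4low BCCs (0.95, SE 0.065, adjusted p = 1.10e-06). The smaller difference between Oct4hi and Oct4med (-0.26, SE 0.080, adjusted p = 0.0303) lost its call in 10 of 20 alternatives, including without either Oct4med array (adjusted p up to 0.122).

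TNF, the ligand that gives the family its name, lay near the array median. The Oct4low arrays read 4.68, 4.98, 4.97 and 4.83, the Oct4med arrays 5.20 and 5.09, and the Oct4hi arrays 5.14, 5.25, 5.35 and 5.33. TNF reached the array median on 6 arrays, none of them Oct4low, so it entered the test only through the subsets in which it was higher. The Oct4low arrays did not overlap with the others. The difference of Oct4hi from Oct4low was 0.40 (SE 0.085, adjusted p = 0.00350), and it stayed called in 19 of 19 alternatives, also without a filter (adjusted p = 0.00724). The difference of Oct4med from Oct4low was 0.28 (95% CI 0.05 to 0.51, adjusted p = 0.0769) and that of Oct4hi from Oct4med 0.12 (95% CI -0.10 to 0.35, adjusted p = 0.399), neither past the threshold.

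TNF and LTB are neighbours within the major histocompatibility complex on chromosome 6. Of 4 other genes there with a tested probe set (LST1, NCR3, AIF1 and BAG6), none was called in any of the 3 comparisons, with adjusted p from 0.0523 upwards. Their Oct4low means were 5.48, 5.10, 6.25 and 5.44, beside array medians of 5.05 to 5.14. The lack of calls therefore says little about the dimmest of them. Gene lists are described below by counts over their tested genes. Over all 7644 genes, 35.2% were called between the extreme gates (20.4% above Oct4low and 14.7% below), 17.4% for Oct4med against Oct4low (5.68% above and 11.7% below) and 27.8% for Oct4hi against Oct4med (18.2% above and 9.62% below). Among the other 4 tested TNF superfamily ligands, 2 were higher in Oct4hi than in Oct4low BCCs and none was lower. They were TNFSF15, a ligand that costimulates T cells (5.30 ± 0.25 in Oct4low and 5.91 ± 0.17 in Oct4hi; SD, n = 4 each; difference 0.61, adjusted p = 0.00283), and TNFSF9. TNFSF15 was also higher in Oct4med than in Oct4low BCCs (0.62, adjusted p = 0.0132).

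TNFSF9 (4-1BB ligand) is the ligand of the member TNFRSF9 (4-1BB), a costimulatory receptor best known from activated T cells and itself induced through NF-kB. The brightest of 3 TNFRSF9 probe sets (207536_s_at) read 8.77, 8.66, 8.92 and 8.81 in Oct4low BCCs, 9.01 and 9.06 in Oct4med BCCs and 9.36, 9.40, 9.50 and 9.31 in Oct4hi BCCs. The 3 subsets did not overlap and stood in the order of their gates. The receptor was 1.52-fold higher in Oct4hi than in Oct4low BCCs (0.61, SE 0.077, adjusted p = 0.000138), and Oct4hi was higher than Oct4med (0.36, SE 0.094, adjusted p = 0.0154), a call lost in 3 of 20 alternatives, among them the fit without Oct4med replicate 1 (adjusted p up to 0.146). Oct4med against Oct4low did not pass (0.25, 95% CI 0.04 to 0.45, adjusted p = 0.0833).

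The second TNFRSF9 probe set (211786_at) showed a like order, with means of 7.07 ± 0.06, 7.35 ± 0.001 and 7.70 ± 0.08 in Oct4low, Oct4med and Oct4hi BCCs (SD, n = 4, 2 and 4). It was higher in Oct4hi than in Oct4low BCCs by 0.63 (adjusted p = 4.74e-05) and than in Oct4med BCCs by 0.35 (adjusted p = 0.0106), the latter call lost in 3 of 21 alternatives, among them the fit without Oct4med replicate 1 (adjusted p up to 0.0672). The dimmest probe set (238950_at) placed Oct4med and Oct4hi at 6.09 ± 0.09 and 6.10 ± 0.08, above the Oct4low mean of 5.79 ± 0.12, with a difference of 0.31 between Oct4hi and Oct4low (adjusted p = 0.0108). The calls of Oct4med against Oct4low for these dimmer probe sets (0.28, adjusted p = 0.0362, and 0.31, adjusted p = 0.0458) were lost in 11 of 21 and 14 of 19 alternatives, with adjusted p up to 0.130 and 0.256. The ligand TNFSF9 had means of 7.91 ± 0.12, 7.88 ± 0.10 and 8.38 ± 0.08 in Oct4low, Oct4med and Oct4hi BCCs. It was higher in Oct4hi than in Oct4low (0.47, adjusted p = 0.000983) and than in Oct4med BCCs (0.50, adjusted p = 0.00340).

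Of 14 other tested genes of the TNF receptor superfamily, 2 lay above and 3 below Oct4low in Oct4hi BCCs. In Oct4med BCCs 2 lay above Oct4low and none below, and 1 gene was lower in Oct4hi than in Oct4med. TNFRSF21 (death receptor 6) was lower in Oct4hi than in Oct4low by 0.52 (adjusted p = 0.000150) and than in Oct4med by 0.35 (adjusted p = 0.00871), the latter not called on its other probe set (214581_x_at, -0.30, adjusted p = 0.0762). TNFRSF14, the receptor of LIGHT, was lower in Oct4hi than in Oct4low by 0.30 (adjusted p = 0.00561), and FAS, the receptor of Fas ligand, was higher by 0.31 (adjusted p = 0.0196). TNFRSF10A, a TRAIL receptor, was higher than Oct4low in both Oct4med (0.33, adjusted p = 0.0243) and Oct4hi BCCs (0.27, adjusted p = 0.0139). The B-cell receptor TNFRSF13C was higher in Oct4med than in Oct4low BCCs by 0.36 (adjusted p = 0.0473).

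IL1A encodes interleukin-1 alpha, which is held in the cell and acts as an alarm signal once released. Its tested probe set (210118_s_at) read 7.33, 7.29, 7.27 and 7.26 in Oct4low BCCs, 7.81 and 7.77 in Oct4med BCCs and 7.70, 7.97, 7.85 and 7.74 in Oct4hi BCCs. All 6 Oct4med and Oct4hi arrays lay above the 4 Oct4low arrays and overlapped with each other. IL1A was 1.44-fold higher in Oct4hi than in Oct4low BCCs (0.53, SE 0.075, adjusted p = 0.000312) and 1.42-fold higher in Oct4med than in Oct4low BCCs (0.50, SE 0.092, adjusted p = 0.00246). Oct4hi and Oct4med differed by 0.02 (95% CI -0.18 to 0.22, adjusted p = 0.862).

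Of 10 other interleukin-1 family members, receptors and adaptors tested, none was higher and 3 were lower in Oct4hi than in Oct4low BCCs. IL1R1, the signalling receptor that binds IL-1 alpha, fell over the gates with means of 7.52 ± 0.09, 7.24 ± 0.06 and 6.91 ± 0.06, and all 3 differences were called (-0.61 for Oct4hi against Oct4low, adjusted p = 8.11e-05; -0.28 for Oct4med against Oct4low, adjusted p = 0.0440; -0.34 for Oct4hi against Oct4med, adjusted p = 0.0159). CASP1, the protease that matures IL-1 family cytokines, was lower in Oct4hi than in Oct4low BCCs by 0.41 (adjusted p = 0.00364), and SIGIRR, an inhibitory receptor of the family, by 0.25 (adjusted p = 0.0412). In Oct4med BCCs IL18 was lower than in Oct4low BCCs by 0.78 (adjusted p = 0.00583) and IL1RN, the receptor antagonist, higher by 0.35 (adjusted p = 0.0374), although IL1RN reached the array median on 1 Oct4med and 1 Oct4hi array only.

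CCL2 is the chemokine that attracts monocytes. It read 6.63, 6.58, 6.89 and 6.87 in Oct4low BCCs, 7.56 and 7.47 in Oct4med BCCs and 7.69, 7.72, 7.64 and 7.73 in Oct4hi BCCs. No array of any subset overlapped with another subset. CCL2 was 1.93-fold higher in Oct4hi than in Oct4low BCCs (0.95, SE 0.084, adjusted p = 9.00e-06) and 1.71-fold higher in Oct4med than in Oct4low BCCs (0.77, SE 0.103, adjusted p = 0.000320). The step from Oct4med to Oct4hi was 0.18 (95% CI -0.04 to 0.41, adjusted p = 0.209) and did not pass. IL1A, CCL2, LTB and the TNFRSF9 probe sets 211786_at and 238950_at, 5 of the 11 tested, were called higher than Oct4low in both Oct4med and Oct4hi, as were 2.55% of all tested probe sets.

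CXCL1 and CXCL2 are neutrophil attractants that act on the receptor CXCR2. CXCL1 was among the bright probe sets and read 11.52, 11.66, 11.69 and 11.51 in Oct4low BCCs, 11.17 and 11.32 in Oct4med BCCs and 10.64, 10.75, 10.78 and 10.72 in Oct4hi BCCs. The subsets did not overlap and ran against the order of the gates. CXCL1 was 1.83-fold lower in Oct4hi than in Oct4low BCCs (-0.87, SE 0.074, adjusted p = 5.82e-06) and 1.43-fold lower in Oct4hi than in Oct4med BCCs (-0.52, SE 0.091, adjusted p = 0.00175). The difference of Oct4med from Oct4low (-0.35, SE 0.091, adjusted p = 0.0170) lost its call in 4 of 21 alternatives, among them the fit without Oct4med replicate 1 (adjusted p up to 0.138).

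CXCL2 read 11.74, 11.80, 11.79 and 11.78 in Oct4low BCCs, 10.57 and 10.58 in Oct4med BCCs and 11.26, 11.30, 11.29 and 11.36 in Oct4hi BCCs. Here Oct4med was the lowest subset and Oct4hi stood between the others, again with no overlap. CXCL2 was 2.30-fold lower in Oct4med than in Oct4low BCCs (-1.20, SE 0.076, adjusted p = 1.20e-06), 1.39-fold lower in Oct4hi than in Oct4low BCCs (-0.47, SE 0.062, adjusted p = 0.000186) and 1.65-fold higher in Oct4hi than in Oct4med BCCs (0.73, SE 0.076, adjusted p = 5.23e-05). From Oct4med to Oct4hi the pair therefore moved in opposite directions, CXCL1 down and CXCL2 up, and both calls held in every alternative run for them. The CXCL2 probe set has the suffix _x_at, which marks probes that can also bind related transcripts, and CXCL1, CXCL2 and CXCL3 are close in sequence, so part of its signal may come from the other genes.

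Beside CXCL1 and CXCL2, 3 genes of the CXC chemokine cluster on chromosome 4 were tested. Of these, CXCL3 and CXCL8 were lower in Oct4hi than in Oct4low BCCs, and also in Oct4med than in Oct4low BCCs. PF4 was not called in either comparison. CXCL3, whose promoter window has the kappa B letters 79 bases before the start, as CXCL1 has, had means of 7.77 ± 0.07, 7.12 ± 0.05 and 7.34 ± 0.10 in Oct4low, Oct4med and Oct4hi BCCs. It was lower than Oct4low by 0.65 in Oct4med (adjusted p = 0.000421) and by 0.43 in Oct4hi (adjusted p = 0.00116). The promoter window of CXCL8 (interleukin-8) held no exact match to the kappa B consensus, which does not exclude a variant site. CXCL8 had means of 12.90 ± 0.04, 12.43 ± 0.10 and 12.67 ± 0.05. It was lower than Oct4low by 0.47 in Oct4med (adjusted p = 0.00184) and by 0.24 in Oct4hi (adjusted p = 0.0165). Its dimmer probe set (211506_s_at) was not called (-0.39, adjusted p = 0.292, and -0.44, adjusted p = 0.111).

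Over all chemokine ligands, 10 genes beside the members were tested. Of these, 3 lay above and 2 below Oct4low in Oct4hi BCCs, 2 lay above and 2 below it in Oct4med BCCs, and 1 was called higher in Oct4hi than in Oct4med. CXCL14, an epithelial chemokine, was higher in Oct4hi than in Oct4low by 0.58 (adjusted p = 0.000175) and than in Oct4med by 0.48 (adjusted p = 0.00289), at a dim level of 4.77 ± 0.08 in Oct4low and 5.35 ± 0.09 in Oct4hi. It reached the array median on the 4 Oct4hi arrays only, so like TNF it entered the test through the subset in which it was higher, and its other tested probe set (222484_s_at) was not called for Oct4hi against Oct4med (0.38, adjusted p = 0.105). CCL20, the ligand of CCR6, was higher than Oct4low in Oct4hi by 0.44 (adjusted p = 0.000974) and in Oct4med by 0.30 (adjusted p = 0.0372). CCL24, an eosinophil attractant, was higher in Oct4med than in Oct4low by 0.43 (adjusted p = 0.0203), at dim means of 5.47 and 5.03. Only 1 Oct4low array reached the array median for CCL24, and Oct4low replicate 3 was low (4.781, others 5.102 to 5.142). Of 6 chemokine receptors tested, 1 was called in 1 comparison, CXCR5 at -0.37 for Oct4hi against Oct4med (adjusted p = 0.0250). Of 7 other interleukins and colony-stimulating factors, IL6 was lower than Oct4low in Oct4hi (-0.34, adjusted p = 0.00187) and in Oct4med BCCs (-0.50, adjusted p = 0.000861), with means of 12.18 ± 0.06, 11.68 ± 0.01 and 11.84 ± 0.03. IL24 was higher in Oct4hi than in Oct4low BCCs by 0.40 (adjusted p = 0.0473), at dim means of 5.64 and 5.23, and its arrays overlapped between these gates. None of the 7 passed the threshold between Oct4hi and Oct4med.

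TNFAIP3 was measured by 2 probe sets that agreed on a low level in Oct4med BCCs. The brighter (202644_s_at) read 10.72, 10.83, 10.83 and 10.79 in Oct4low BCCs, 9.68 and 9.81 in Oct4med BCCs and 10.87, 10.82, 10.79 and 10.85 in Oct4hi BCCs. The other (202643_s_at) read 9.26, 9.27, 9.17 and 9.20 in Oct4low BCCs, 8.20 and 8.22 in Oct4med BCCs and 9.40, 9.40, 9.38 and 9.39 in Oct4hi BCCs. In both, the Oct4med arrays lay far below all others.

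TNFAIP3 was 2.07-fold and 2.02-fold lower in Oct4med than in Oct4low BCCs by these probe sets (-1.05, SE 0.081, adjusted p = 5.71e-06, and -1.02, SE 0.076, adjusted p = 4.33e-06). It was 2.13-fold and 2.28-fold higher in Oct4hi than in Oct4med BCCs (1.09, adjusted p = 2.81e-06, and 1.19, adjusted p = 9.50e-07). The extreme gates differed by 0.04 on the brighter probe set (95% CI -0.11 to 0.18, adjusted p = 0.691). On the other they differed by 0.17 (95% CI 0.04 to 0.31, adjusted p = 0.0495), a call lost in 11 of 20 alternatives, including without any 1 of the Oct4low or Oct4hi arrays (adjusted p up to 0.389).

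CXCL2 and both TNFAIP3 probe sets, 3 of the 11 tested, were called lower in Oct4med than in both other subsets, as were 7.74% of all tested probe sets. A control probe set for 28S ribosomal RNA (AFFX-M27830_5_at) moved in the same way, with means of 13.60 ± 0.07, 12.70 ± 0.09 and 13.57 ± 0.03 in Oct4low, Oct4med and Oct4hi BCCs (SD, n = 4, 2 and 4), as did AFFX-M27830_M_at (11.98 ± 0.04, 11.50 ± 0.18 and 11.87 ± 0.06). Another 28S probe set (AFFX-M27830_3_at) was dim and nearly level (5.30, 5.27 and 5.22), and the 18S probe set was not lowest in Oct4med (12.84, 12.98 and 13.14). The part of this in the Oct4med results was not tested.

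**Figure D3:**
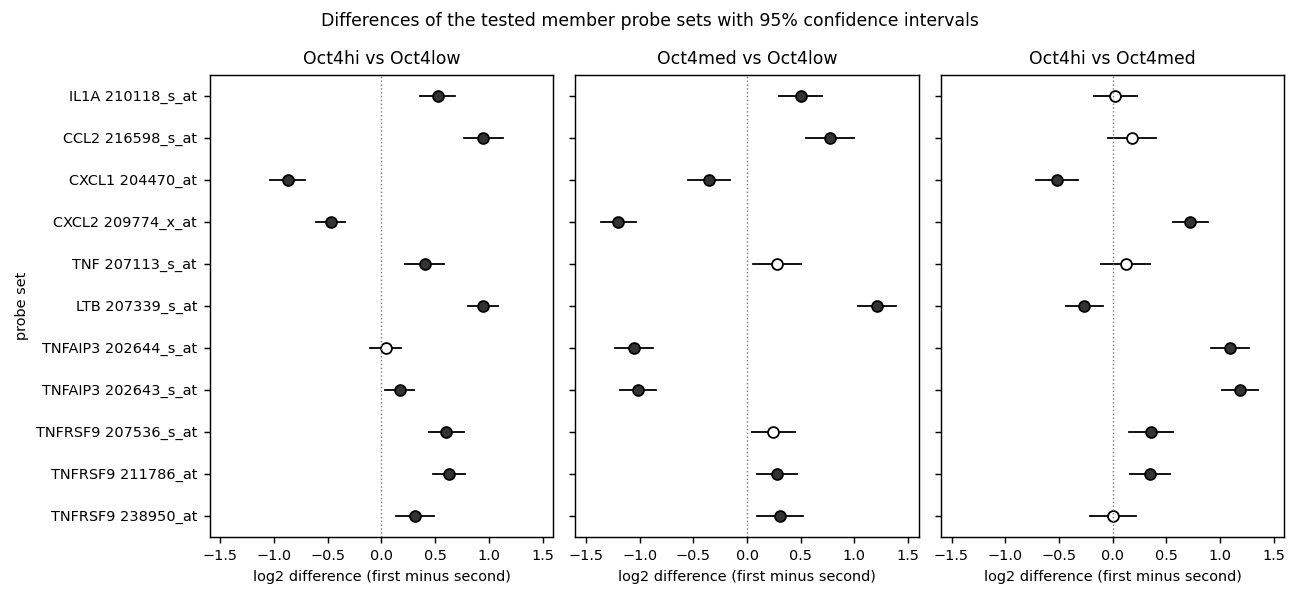
Log2 differences (horizontal axes, first subset minus second) of the 11 tested member probe sets in the 3 comparisons, with 95% confidence intervals from limma as lines. Filled points passed an adjusted p of 0.05 and open points did not. CXCL1 and CXCL2 are below zero against Oct4low in both comparisons, and CXCL2 and TNFAIP3 lie to the right of zero for Oct4hi against Oct4med.

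A list of I kappa B proteins and negative regulators of NF-kB held 9 other tested genes, not all of which need act as inhibitors. Of these, 2 lay above and 1 below Oct4low in Oct4hi BCCs, none lay above and 2 below it in Oct4med BCCs, and 2 rose from Oct4med to Oct4hi. NFKBIA (I kappa B alpha), with a kappa B match 81 bases before its start, had means of 12.41 ± 0.07, 11.96 ± 0.02 and 12.34 ± 0.08. It was lower in Oct4med than in Oct4low BCCs by 0.44 (adjusted p = 0.00380) and higher in Oct4hi than in Oct4med by 0.38 (adjusted p = 0.00800). NFKBIZ, an atypical I kappa B protein of the nucleus, was lower than Oct4low in Oct4med (-0.60, adjusted p = 0.000405) and in Oct4hi (-0.41, adjusted p = 0.000820), the latter not called on its other probe set (223217_s_at, -0.24, adjusted p = 0.0911). ITCH, a ubiquitin ligase that works with A20, was higher in Oct4hi than in Oct4low by 0.35 (adjusted p = 0.00263) and than in Oct4med by 0.42 (adjusted p = 0.00440), on the brightest of 6 probe sets. Of the other 5 ITCH probe sets, 2 were called higher in Oct4hi than in Oct4low and 3 were not (0.12, 0.05 and -0.14, adjusted p from 0.202 to 0.772). OTULIN, a deubiquitinase of linear chains, was higher in Oct4hi than in Oct4low by 0.25 (adjusted p = 0.0152).

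The 2 NF-kB subunits with a tested probe set went apart. NFKB2 (p100) was lower than Oct4low in Oct4hi (-0.44, adjusted p = 0.000801) and in Oct4med BCCs (-0.51, adjusted p = 0.00179). REL (c-Rel) was higher in Oct4hi than in Oct4low by 0.56 on its brightest probe set (adjusted p = 0.0149), while its other tested probe set (206036_s_at) differed by -0.12 (adjusted p = 0.346).

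On a list of signal transducers of the TNF receptors and I kappa B kinases, 6 genes were tested, none of them a subunit of the I kappa B kinase itself. Of these, 2 lay above and 2 below Oct4low in Oct4hi BCCs and 1 lay below it in Oct4med BCCs. From Oct4med to Oct4hi 3 rose and 2 fell. MAP3K8 (TPL2), a kinase between NF-kB and ERK signalling, read 6.82, 6.95, 6.81 and 6.98 in Oct4low BCCs, 5.15 and 4.96 in Oct4med BCCs and 6.29, 6.27, 5.98 and 6.53 in Oct4hi BCCs. Its Oct4med values lay near the array median, which 1 Oct4med array reached. MAP3K8 was lower in Oct4med than in Oct4low by 1.84 (adjusted p = 2.90e-06), lower in Oct4hi than in Oct4low by 0.62 (adjusted p = 0.00105) and higher in Oct4hi than in Oct4med by 1.22 (adjusted p = 6.04e-05), in the order shown by CXCL2. Its dimmer probe set (205027_s_at) was called lower in Oct4med alone (-0.47, adjusted p = 0.0225). MAP3K14 (NIK), which starts the noncanonical pathway, was lower in Oct4hi than in Oct4low by 0.37 (adjusted p = 0.00504), and TAB3, an adaptor of TAK1, was higher by 0.37 (adjusted p = 0.00514). CFLAR, the caspase-8 inhibitor c-FLIP, was higher in Oct4hi than in Oct4med by 0.42 (adjusted p = 0.00304), with 2 of its other 4 probe sets called and 2 not (0.09 each, adjusted p = 0.561 and 0.600), and MAP3K7 (TAK1) was lower by 0.34 (adjusted p = 0.0303).

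Of 13 other genes known to be induced by NF-kB, 4 lay above and 5 below Oct4low in Oct4hi BCCs (median difference -0.07), 4 lay above and 7 below it in Oct4med BCCs (median -0.44), and from Oct4med to Oct4hi 3 rose and 1 fell (median 0.14). This list includes CCL20, CXCL3, CXCL8, IL6, NFKB2 and NFKBIA, already described. The median over all genes for Oct4med against Oct4low was 0.03. GADD45B, a stress-induced regulator of p38 and JNK signalling, was low in Oct4med, with means of 10.32 ± 0.06, 9.60 ± 0.02 and 10.78 ± 0.02 and differences of -0.72 for Oct4med against Oct4low (adjusted p = 7.61e-05), 0.46 for Oct4hi against Oct4low (adjusted p = 0.000265) and 1.18 for Oct4hi against Oct4med (adjusted p = 1.27e-06). IRF1, an interferon regulatory factor, was also lowest in Oct4med (9.38 ± 0.03, 8.64 ± 0.03 and 8.94 ± 0.05), by 0.74 against Oct4low (adjusted p = 5.41e-05) and with a rise of 0.30 from Oct4med to Oct4hi (adjusted p = 0.0134).

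Messages of cytokines are short-lived because proteins such as tristetraprolin (ZFP36) bind AU-rich elements in them. Of 7 tested regulators of this decay, 1 was lower in Oct4hi than in Oct4low BCCs, 3 were lower in Oct4med than in Oct4low and 2 were higher in Oct4hi than in Oct4med, with none called the other way. ZFP36 had means of 8.59 ± 0.13, 7.76 ± 0.15 and 8.41 ± 0.02 and was lower in Oct4med than in Oct4low by 0.83 (adjusted p = 0.000129) and higher in Oct4hi than in Oct4med by 0.65 (adjusted p = 0.000721). Its relative ZFP36L2 was lower in Oct4med than in Oct4low by 0.38 (adjusted p = 0.00553) and higher in Oct4hi than in Oct4med by 0.24 (adjusted p = 0.0420). HNRNPD (AUF1), another AU-rich element binder, was lower than Oct4low in both Oct4med (-0.62, adjusted p = 0.00348) and Oct4hi BCCs (-0.54, adjusted p = 0.00151).

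**Figure D4:**
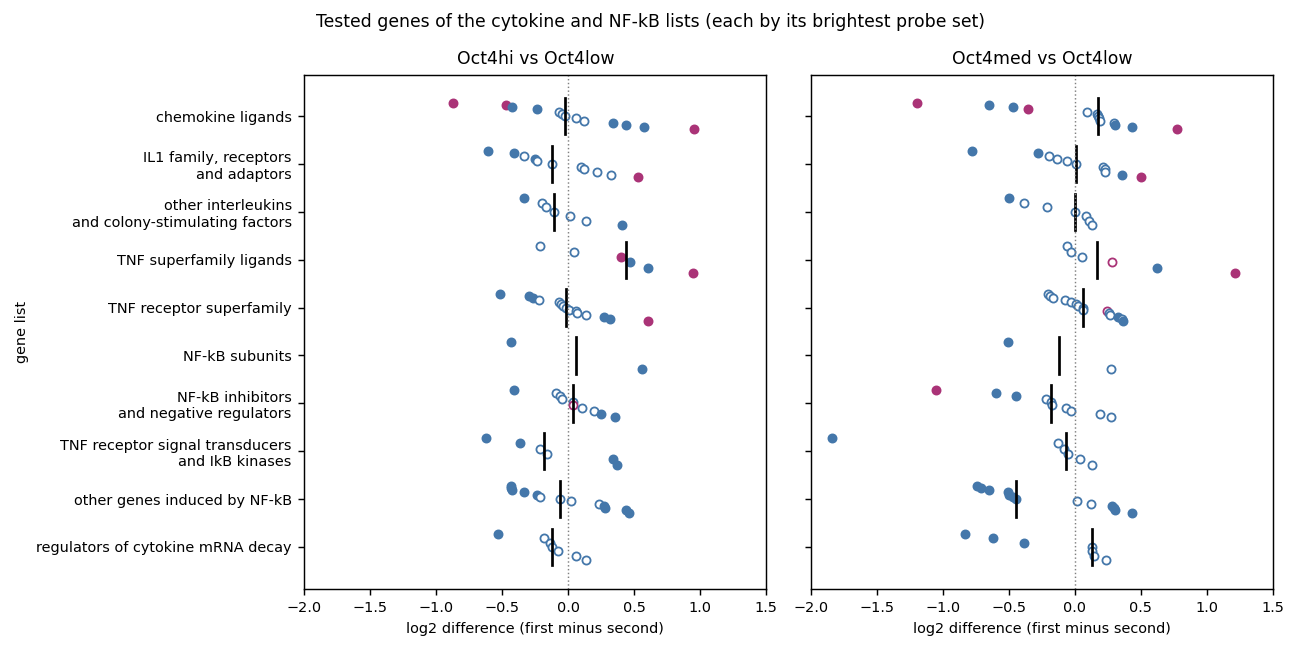
Log2 differences (horizontal axes) of the tested genes of 10 lists, for Oct4hi against Oct4low and Oct4med against Oct4low. Each point is 1 gene by its brightest tested probe set, members in purple and other genes in blue, filled where the adjusted p was under 0.05 and open otherwise, and black bars are list medians. MAP3K8 at -1.84 and CXCL2 at -1.20 are the lowest points of the right panel and LTB at 1.21 the highest.

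Genes with the most similar profile to each member were found by the root mean square (RMS) difference between log2 values centred on the mean of the 10 arrays. CXCL1 was nearest to NPAS2 (0.059) and CDH11 (0.072), and CXCL2 to ATF3 (0.085) and H2BC5 (0.089). TNFAIP3 was nearest to TRIB1 (0.065) and NOCT (0.100), and TNFRSF9 to BCAT1 (0.063) and MAT2A (0.066). IL1A was nearest to CKAP2L (0.085) and ELOVL7 (0.096), and TNF to RFESD (0.075) and FAM111A (0.076). CCL2 was nearest to INHBE (0.144) and PLAAT1 (0.174). LTB had the least close neighbours, LYPLA1 (0.199) and the member CCL2 (0.204). These members varied about their own means by an RMS of 0.205 (TNF) to 0.518 (LTB), and the likeness describes 10 arrays of 3 subsets.

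Other cells that make cytokines were looked for by their markers. Of 17 leukocyte markers 12 were on the deposited table. The common leukocyte antigen PTPRC, CD163, LYZ, MS4A1, NKG7 and SPI1 stayed below the median on all arrays. CD3D, CD3E, CD79A, CSF1R and ITGAM reached it on all 10 and CD14 on 8. Their Oct4low means were 5.38, 5.44, 5.69, 5.96, 5.61 and 5.51, which are dim values beside array medians of 5.05 to 5.14. The summed linear signal of the leukocyte markers was 341.2 to 385.8 in Oct4low, 356.2 to 412.6 in Oct4med and 349.1 to 381.6 in Oct4hi BCCs. CD14 was lower in Oct4med than in Oct4low (-0.50, adjusted p = 0.0340) and CD79A lower in Oct4hi than in Oct4med (-0.32, adjusted p = 0.0411), and no other leukocyte marker was called. The summed signal of 8 luminal breast markers was 1038 to 1072, 883.1 to 936.0 and 636.5 to 689.5, that of 4 erythroid markers 433.3 to 443.3, 512.6 to 556.8 and 509.0 to 526.0, that of 6 stromal and endothelial markers 431.8 to 467.1, 503.2 to 503.9 and 390.0 to 415.3, and that of 10 markers of MDA-MB-231 and other mesenchymal-like basal cells 17990 to 19270, 16020 to 16320 and 13690 to 14130. Of the last list, 8 markers were at or above the median on all arrays. The luminal and MDA-MB-231 sums moved over the gates in the direction of CXCL1, and the erythroid sum in that of LTB, CCL2 and IL1A. HBE1 was the only erythroid marker called (7.214, 7.895 and 7.947 in Oct4low, Oct4med and Oct4hi BCCs). Among luminal markers GATA3 and MLPH fell over the gates, while TFF1 was lowest in Oct4med (6.618, 5.301 and 6.139). Of 8 tested MDA-MB-231 markers, 4 were lower and 1, S100A4, was higher in Oct4hi than in Oct4low BCCs. The part of these markers in the results was not tested. In sorted bulk RNA, fewer cells that express a gene cannot be told apart from less RNA of it per cell.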

How the data were processed

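Total RNA of 10 sorted samples (4 Oct4low, 2 Oct4med and 4 Oct4hi) was measured on Affymetrix Human Genome U133 Plus 2.0 arrays from 100 ng each. The deposited values are log2 intensities that the authors made with RMA (background correction, quantile normalization and probe summarization), with BRB-Array Tools per the study's methods, which also state a filter against features near background or changing less than 1.2-fold. Shares of called probe sets are therefore over a table the authors had filtered, although by the rule as computed here 7263 of the 13883 tested probe sets change by that much. They ranged from 2.37 to 14.46, with array medians of 5.05 to 5.14. Arrays of the same subset correlated at r = 0.987 to 0.994 and arrays of different subsets at 0.957 to 0.981. Precision is limited by the number of arrays.

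Symbols came from the platform annotation (18683 probe sets with 1 symbol, 799 with several and 6268 with none; 18654 matched RefSeq by gene ID and none was renamed). The 23 control probe sets were left out of tests. Probe sets at or above the array median in at least 2 arrays were fitted with limma 3.58.1 in R 4.3.3 (lmFit and eBayes, all 10 arrays, no covariate), two-sided, with Benjamini-Hochberg adjustment over 13883 probe sets and a threshold of 0.05. The procedure was tested on simulated data. Genes stand by their brightest tested probe set. The suffixes _s_at and _x_at mark probe sets that match several transcripts or related genes. All member probe sets are named, with up to 3 called genes with the largest change per list and comparison, and 2 similar genes per member past the F-test. A few list genes outside that rule (LST1, NCR3, AIF1, BAG6 and PF4) were named after their values were seen. The members, lists and markers were chosen with earlier results of these data known. Motifs were searched with Python 3.11.15 in the 250 bases before RefSeq starts. Alternatives covered the filter, normalization, weights, variance prior, samples, test, replicate block, probe set type and each left-out array.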

Additional observations from a re-analysis of the deposited data

Results flagged for a closer look

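In groups of 4 arrays, 1 array lay far from the other 3 by Dixon's test in 7 of 98 groups looked at, 2 of them among 26 groups of member probe sets; chance gives about 1 in 20. For TNFRSF9, Oct4hi replicate 4 read 7.815 on 211786_at (others 7.648 to 7.667), and Oct4hi replicate 1 read 6.222 on 238950_at (others 6.040 to 6.063). Without these arrays the calls of Oct4hi against Oct4low for either probe set stayed past the threshold. Among other genes, Oct4low replicate 3 was low for CCL24 (4.781, others 5.102 to 5.142) and for TNFRSF13C (5.856, others 6.230 to 6.297). Oct4hi replicate 4 was high for CFLAR (10.047, others 9.960 to 9.974). Oct4low replicate 1 was low for CXCR5 (6.129, others 6.202 to 6.207), and Oct4low replicate 4 for TAB3 (7.702, others 7.903 to 7.921).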

How the results depend on the processing

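In this section members are counted by probe set, not by gene. The tested member probe sets were refitted in the 3 comparisons under each alternative whose filter kept them (19 to 21 alternatives a probe set), which gave 660 values: 595 kept their direction and side of the threshold, 56 lost the call, 3 gained it and 6 changed sign. None of the 6 was called. They were TNFAIP3 (202644_s_at) for Oct4hi against Oct4low after a further quantile normalization (-0.052), and, for Oct4hi against Oct4med, IL1A after that normalization (-0.098) and without Oct4hi replicate 2 (-0.027) and TNFRSF9 (238950_at) after that normalization (-0.015), without Oct4med replicate 2 (-0.061) and without Oct4hi replicate 1 (-0.039). With 1 array left out these ranged from -0.027 to 0.064 for IL1A and from -0.061 to 0.066 for TNFRSF9. With 1 array left out, the count of called probe sets ranged from 3776 to 5018 for Oct4hi against Oct4low (main 4837; members 9 to 10), from 1521 to 2806 for Oct4med against Oct4low (main 2865; members 6 to 8) and from 1425 to 3883 for Oct4hi against Oct4med (main 3710; members 4 to 7). Without Oct4med replicate 1 the last fell to 1425, with 4 members; the lone Oct4med array is then assumed to vary like the other groups. Without probe sets of the suffixes _x_at and _s_at, 9396 probe sets and 3 members were tested, and 3123 were called for Oct4hi against Oct4low (3 members), 3 members for Oct4med against Oct4low, and 2438 (2 members) for Oct4hi against Oct4med. A plain two-sample t-test, without the random variance model of the study's methods, called 1109 for Oct4med against Oct4low and 1866 for Oct4hi against Oct4med, and array quality weights called 1851 for Oct4med against Oct4low. The labels do not say whether same-numbered arrays belong together. Deviations of same-numbered arrays from their group means correlated at r = -0.27 to 0.28, which so few arrays leave undecided. With the replicate number as a block, 1552 were called for Oct4med against Oct4low and 2232 for Oct4hi against Oct4med (4 member probe sets). A further quantile normalization split the calls of Oct4med against Oct4low as 1381 higher and 1807 lower (main 720 and 2145), and of Oct4hi against Oct4med as 1719 and 1618 (main 2516 and 1194). The cause of these changes was not tested, beyond the fewer probe sets or arrays where the alternative has them.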
